A study of Caenorhabditis elegans with 12 samples.

Results

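The neuropeptide-like protein (nlp) genes of C. elegans were examined in wild-type larvae exposed to dauer-inducing ascarosides. Members were all genes of the N2 table whose symbol starts with nlp-, without nlp-27 to nlp-34, a group of epidermal antimicrobial peptide genes. This gave 70 of the 46726 genes in the table. Of these, 64 had a mean of at least 5 normalized counts over the 6 libraries and were tested, among 14965 genes tested in all. N2 is the wild-type strain. A synchronous N2 population, hatched from bleached eggs and grown in liquid culture on HB101 bacteria at 20 °C, was split at 6 h after hatching. An equal mixture of the ascarosides ascr#8, ascr#3 and ascr#2, dissolved in ethanol, was added to 3 cultures (treated libraries 1 to 3), and ethanol alone to 3 others (control libraries 4 to 6, numbered as the columns of the table). RNA of whole late L1 larvae was taken after 3 h. The labels give a total ascaroside concentration of 5 µM, and the methods of the study give a lower one. The stock concentration and volumes stated in the methods yield the lower one. All 6 cultures came from one population, so the p-values measure the spread between parallel cultures. The libraries of daf-22(ok693) larvae were not analysed here.

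Neuropeptides are made as precursor proteins, which convertases cut at pairs of basic residues and which are then trimmed and often amidated. The mature peptides are stored in dense-core vesicles and act mainly through G protein-coupled receptors. The nlp family takes in the precursors of C. elegans that are neither FMRFamide-like nor insulin-like, so its members are diverse in sequence. Ascarosides are sensed by neurons, and neuropeptides are among the signals by which neurons act on other tissues.

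Normalized counts are reads per gene scaled by the authors with one factor per library. The reads on genes, recovered from these values, ranged from 11133417 to 19116807 per library, and 1 read was worth between 0.778 and 1.304 normalized counts. Genes of adult animals were low, with msp-3 and msp-10 at 0. The 10 yolk and sperm protein genes summed to between 50.6 and 63.8 normalized counts per library, most of them from vit-1, and 8 of the 10 were below the minimum for testing. Markers of neurons, intestine, epidermis and muscle were all detected.

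In control larvae the nlp genes covered a wide range of levels. On a scale of normalized counts per kb of exon, which allows genes to be compared with each other, nlp-24 was highest with 9036 ± 1257 (SD, n = 3). The receptor NPR-17 is known to respond to its opioid-like peptides. The next were nlp-49 with 3493 ± 301, nlp-36 with 3026 ± 935 and nlp-40 with 2888 ± 564 normalized counts per kb in the 3 controls. These 3 genes overlapped in their control values, so their order was within the spread between cultures. The bodies of nlp-24 and nlp-36 overlap glb-15 and dars-1 on the opposite strand in the WBcel235 annotation. Gene bodies include introns, and whether exons overlap was not examined. The library kit named in the methods does not mark strand, so reads from any shared exons cannot be told apart. The levels and fold changes of both are therefore uncertain, as for other members below whose bodies overlap another gene. NLP-49 acts through the receptor SEB-3 on locomotion and arousal, and NLP-40 is released by the intestine and signals through AEX-2 to time defecation. All of nlp-24, nlp-49, nlp-36 and nlp-40 had means of at least 1000 normalized counts, another 37 members had means between 100 and 1000, and 23 had means between 5 and 100. The tested members together made up 0.148% to 0.149% of all gene counts in each control and 0.156% to 0.174% in each treated library.

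**Figure D1:**
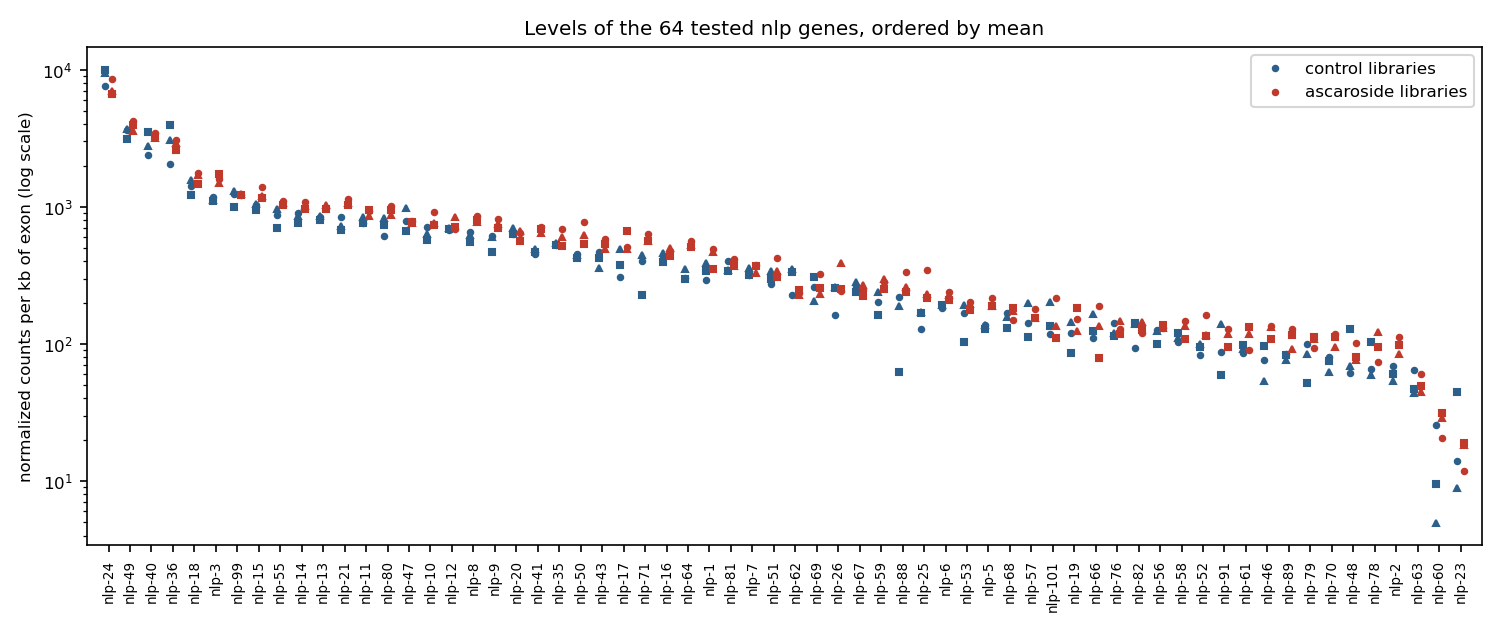
Normalized counts per kb of exon (log scale) of the 64 tested nlp genes, ordered by their mean over the 6 libraries, with 1 point per control library (blue) and treated library (red). nlp-24 stands at the top and nlp-60 and nlp-23 at the bottom. In 27 of the 64 genes every red point lies above every blue one, against 9.78% of all tested genes.

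The 6 members below the minimum were nlp-4, nlp-22, nlp-39, nlp-45, nlp-90 and nlp-119. Over the 6 libraries together nlp-39 had 0 reads, nlp-22 and nlp-90 had 1 each, nlp-119 had 2, nlp-4 had 4 and nlp-45 had 16. NLP-22 is an RPamide peptide known to promote quiescence during the larval moult. The genes nlp-2 and nlp-23, which lie near it on chromosome X and also encode RPamide peptides, passed the minimum. Such a low count limits what can be detected at this depth. The lowest means above the minimum were 9.12 for nlp-60 and 9.73 for nlp-23.

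The comparison asked whether the expression of these genes differed after 3 h of exposure. At an adjusted p under 0.05 (limma on log2(normalized count + 1), Benjamini-Hochberg adjustment over all 14965 genes), 6 of the 64 tested members were higher with ascarosides and 0 were lower. They were nlp-64, nlp-21, nlp-3, nlp-25, nlp-71 and nlp-41. By the same rule 3.52% of all tested genes were called, 2.06% higher and 1.46% lower, against 9.38% of the members. On the recovered reads edgeR called 6 members (3.6% of all genes) and DESeq2 called 7 (4.79% of all genes), each of them higher. At an unadjusted p under 0.05 in limma, 15.2% of all genes passed. Of the members 23 did so with higher values, against 8.05% of all genes, and 1, nlp-24, with lower values, against 7.13%. At an unadjusted p under 0.01, 10 members passed (15.6%), against 6.82% of all genes. In whole larvae, a change in the number of cells that express a gene and a change of RNA per cell cannot be told apart.

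The shift extended beyond the called genes. The log2 fold change was above 0 in 55 of the 64 members (85.9%), against 50.3% of all tested genes, and the median was 0.28 (quartiles 0.11 and 0.45) against 0.002 over all tested genes. In 27 members (42.2%) each treated value lay above each control value, against 9.78% of all tested genes. In 0 members did each treated value lie below each control value, against 9.53%. For a single gene compared between 3 and 3 cultures, the smallest exact permutation p is 0.1 (two-sided), and the calls depend on the variance that limma pools over genes. The members share the same 6 libraries and are not independent of each other. They were also chosen with the upward median of neuropeptide genes in these data already known. The counts and medians here describe the shift and do not test it.

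**Figure D2:**
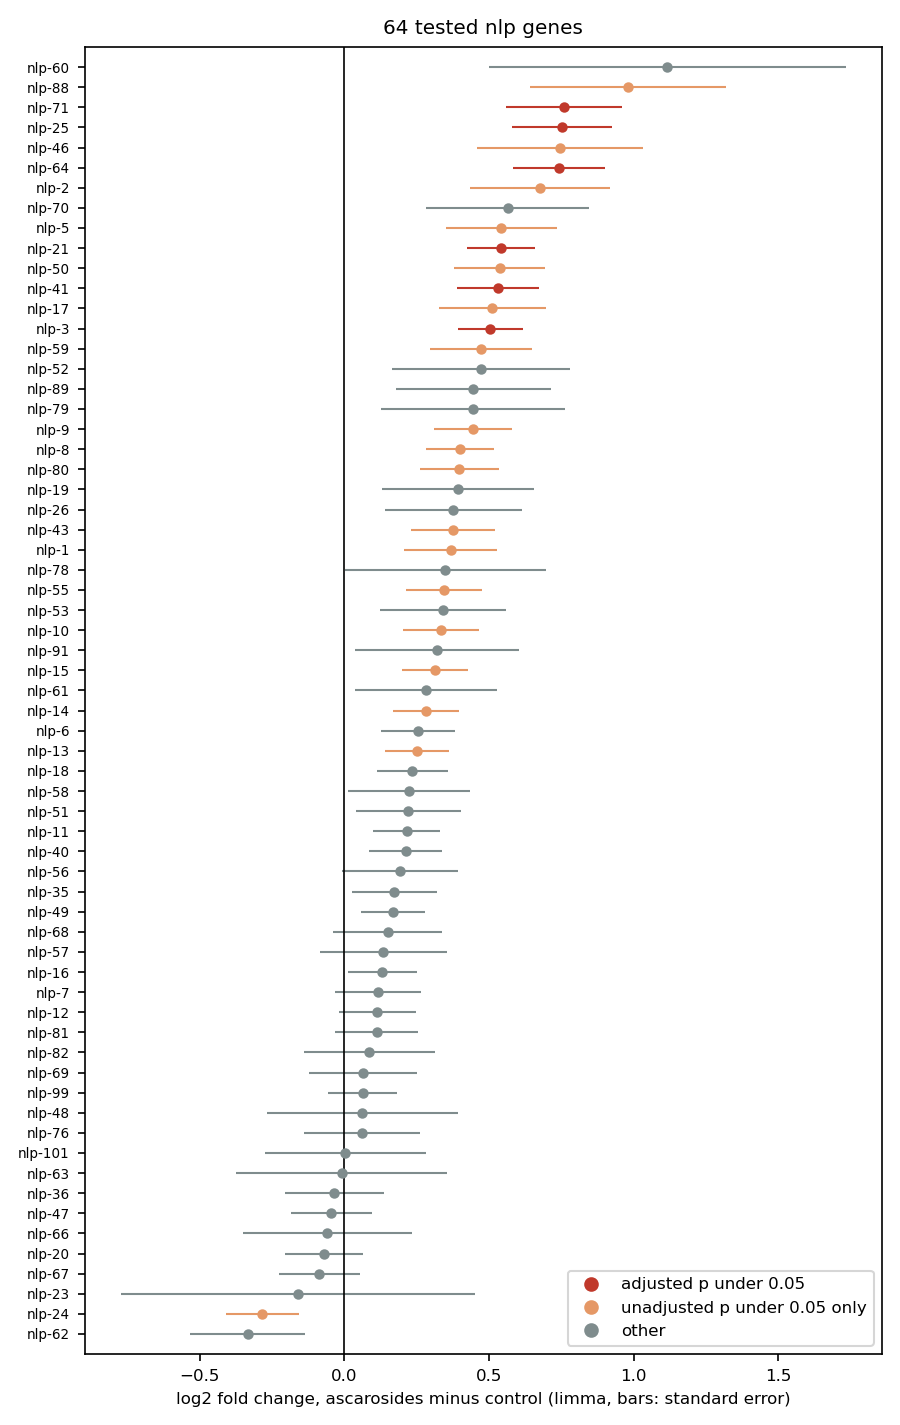
Log2 fold change of each of the 64 tested nlp genes, ascarosides minus control, from limma with its standard error (bars). Of the 6 genes with an adjusted p under 0.05 (red), all lie between 0.50 and 0.76, and 9 genes lie below 0.

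**Figure D3:**
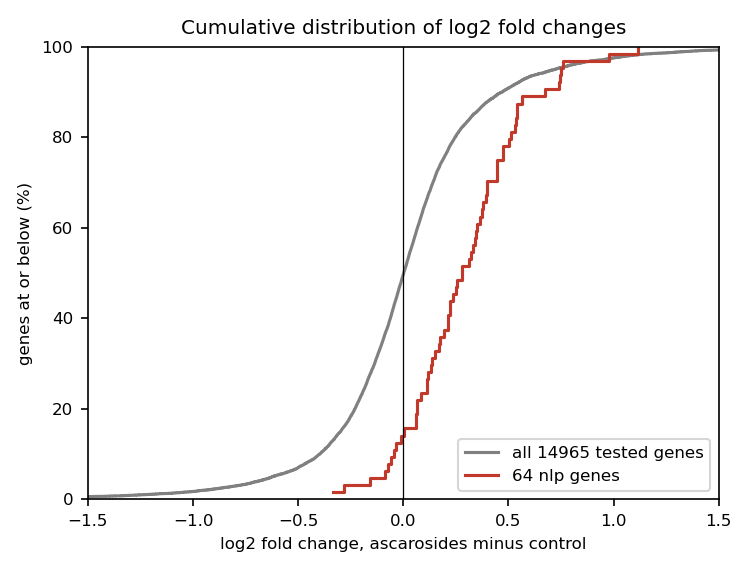
Cumulative share of genes by log2 fold change, for the 64 nlp genes (red) and all 14965 tested genes (grey). Genes with the largest changes lie outside the axis. Over most of its range the curve of the nlp genes lies to the right of the other, meeting it only near the top, with a median of 0.28 against 0.002.

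nlp-64 had 226, 206 and 211 normalized counts in treated libraries 1, 2 and 3 and 123, 119 and 142 in control libraries 4, 5 and 6. The treated values were close to each other and lay well above the controls. Its log2 fold change was 0.74 ± 0.158 (SE) in limma, at an adjusted p = 0.0122. nlp-71 had the highest log2 fold change of the 6, 0.76 ± 0.201 (SE) in limma, at an adjusted p = 0.0445, with 336, 298 and 299 normalized counts in the treated and 212, 122 and 237 in the control libraries. Control library 5 was low for this gene. Without it the log2 fold change was 0.47 (adjusted p = 0.0881 from limma). nlp-25 had 578, 363 and 387 normalized counts in the treated and 213, 278 and 286 in the control libraries, a log2 fold change of 0.75 ± 0.174 (SE) in limma, at an adjusted p = 0.0200. Treated library 1 was far above the other treated libraries, and without it the log2 fold change was 0.54 (adjusted p = 0.193 from limma). nlp-26, which lies near nlp-25 on chromosome V with 1 coding gene between them, had 95.2, 97.9 and 153 normalized counts in the treated and 63.8, 100.2 and 101 in the control libraries, and its groups overlapped (log2 fold change 0.38, adjusted p = 0.495 from limma). The body of nlp-26 overlaps Y43F8C.3 on the opposite strand, so its counts are uncertain in the same way as those of nlp-24.

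The other called genes had smaller fold changes. nlp-21, whose peptides are widely used as tagged cargo to follow dense-core vesicles in motor neurons, had 892, 818 and 845 normalized counts in the treated and 659.7, 535 and 568 in the control libraries. Its log2 fold change was 0.54 ± 0.117 (SE) in limma, at an adjusted p = 0.0133. nlp-3, whose peptides promote egg laying in the adult, had 832, 898 and 777 normalized counts in the treated and 609, 571 and 585 in the control libraries, a log2 fold change of 0.50 ± 0.112 (SE) in limma, at an adjusted p = 0.0157. The control cultures differed little for nlp-3, with an SD of 19.1 around a mean of 588. nlp-41 had 269, 260.4 and 245 normalized counts in the treated and 171, 178 and 186 in the control libraries. Its log2 fold change of 0.53 ± 0.143 (SE) was just inside the threshold (adjusted p = 0.0498 from limma), and with a pseudocount of 5 or without a filter on low values the adjusted p was 0.0506 and 0.0511. The bodies of nlp-21 and nlp-41 overlap subs-4 and mog-4 on the opposite strand, so that their counts are uncertain in the same way as those of nlp-24.

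**Figure D4:**
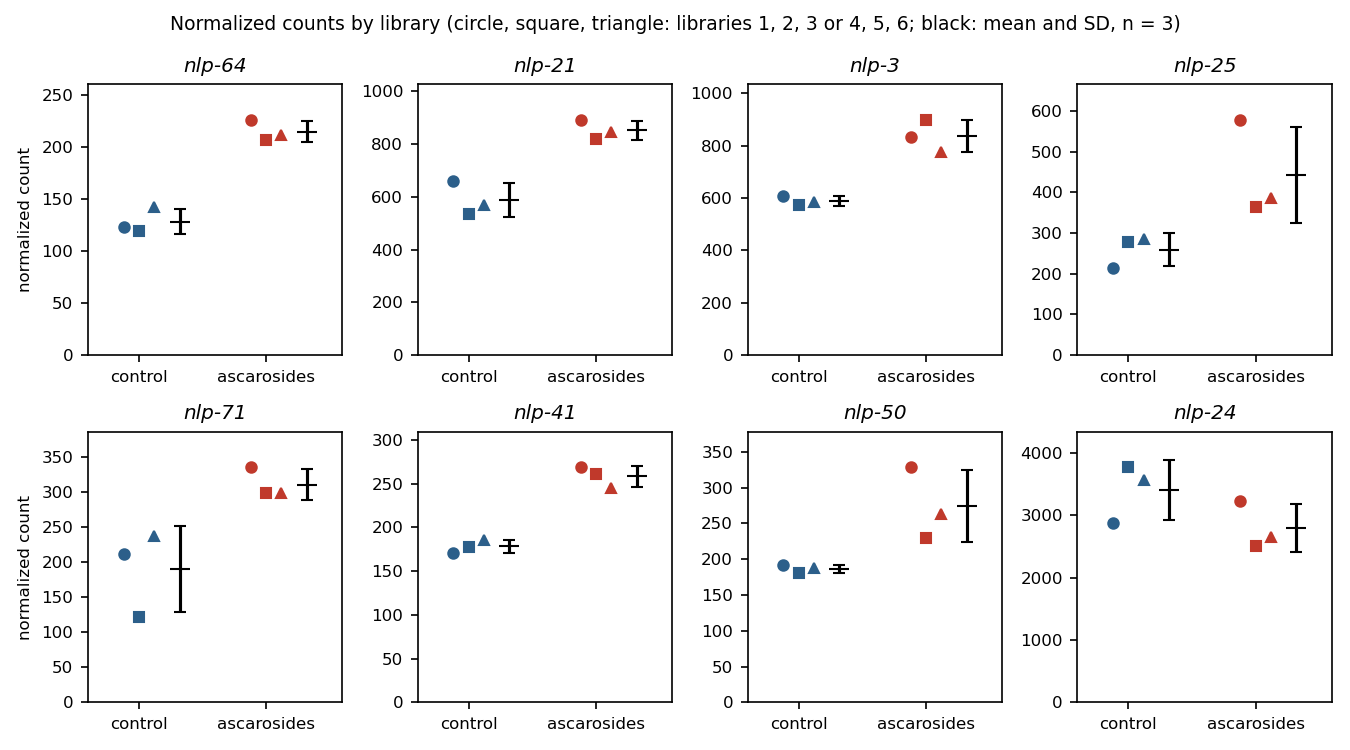
Normalized counts of 8 nlp genes in each library, controls in blue and treated in red, with the mean and SD of each group (n = 3) in black. In nlp-64, nlp-21, nlp-3, nlp-25, nlp-71, nlp-41 and nlp-50 the treated points lie above the control points, and in nlp-24 the groups overlap.

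The calls depended on single libraries. Leaving out treated library 1 left 0 members called, where 1.66% of all genes were called, and 12 at an unadjusted p under 0.05, where 10.4% of all genes passed. Leaving out treated library 2 left nlp-25 (1.45% of all genes called), and leaving out treated library 3 left nlp-25 and nlp-3 (2.21%). Without control library 4 there were 11 calls (9.6% of all genes), 10 of them higher and 1, nlp-24, lower. Without control library 5 there were 4, namely nlp-21, nlp-25, nlp-3 and nlp-64 (3.74%), and without control library 6 there were 3, namely nlp-25, nlp-64 and nlp-71 (2.22%). The direction moved less, with 53 to 59 of the 64 members above 0 and a median between 0.23 and 0.32. Limma with no variance trend called 0 members and 1 gene in all (0.00668%). At an unadjusted p under 0.05 it passed 19 members, against 12.5% of all genes.

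Treated library 1 was the highest of the 6 libraries in 34 of the 64 members, and control library 5 the lowest in 29. As the difference from the mean of the 3 controls on the log2 scale, the median over the members was 0.38, 0.21 and 0.27 in treated libraries 1, 2 and 3 and 0.03, -0.06 and 0.08 in control libraries 4, 5 and 6. The medians of the treated libraries were all above those of the controls. For the 58 members that were not called they were 0.34, 0.19 and 0.25 in the treated libraries, against at most 0.08 in a control. Over all tested genes the medians lay between -0.001 and 0.012. The controls spread more than the treated libraries, with a median coefficient of variation of 12.99% against 9.73% over the members and 16.4% against 10.6% over all tested genes.

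A further 4 members had an unadjusted p under 0.01 in limma and did not pass the adjusted threshold. Their treated values lay above all their control values, as in 9.78% of all tested genes, though a choice by p favours such genes. nlp-50 had 329, 230.0 and 263 normalized counts in the treated and 191, 180.2 and 188 in the control libraries (log2 fold change 0.54, adjusted p = 0.0756 from limma), and it was the member that DESeq2 called in addition (adjusted p = 0.0490). Its body overlaps agr-1 on the opposite strand, so its counts are also uncertain. nlp-8, one of the peptide genes of the ALA neuron that act in quiescence after cellular stress, had 719.7, 674 and 649 normalized counts in the treated and 556, 468 and 528 in the control libraries (log2 fold change 0.40, adjusted p = 0.0802 from limma). nlp-9 had 614, 528 and 561 in the treated and 459, 349 and 450.3 in the control libraries (log2 fold change 0.44, adjusted p = 0.0868 from limma). For nlp-80 the values were 542, 508 and 464 against 325, 390.2 and 440.2 normalized counts (log2 fold change 0.40, adjusted p = 0.143 from limma). nlp-50, nlp-8 and nlp-9 were below an adjusted p of 0.05 in limma without control library 4 (0.0363, 0.0159 and 0.0150).

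Of the 14 members with an unadjusted p between 0.01 and 0.05, 13 had a log2 fold change above 0, between 0.25 for nlp-13 and 0.98 for nlp-88. Control library 5 was low for nlp-88, which had 153, 109 and 120.0 normalized counts in the treated and 101, 28.8 and 87.4 in the control libraries. The groups of nlp-17 and nlp-1 overlapped, and those of the other 11 did not. Over all tested genes 9.78% had higher treated values without overlap, but a choice by p favours such genes.

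The exception was nlp-24, the member with the highest level, whose counts may include reads of glb-15. It had 3228, 2508 and 2651 normalized counts in treated libraries 1, 2 and 3 and 2872, 3774 and 3574 in control libraries 4, 5 and 6. The highest treated value lay above the lowest control value, so that the groups overlapped. The log2 fold change was -0.28 ± 0.126 (SE) in limma, at an adjusted p = 0.291, and without control library 4 it was -0.40 (adjusted p = 0.0149). nlp-24, nlp-25 and nlp-26 were listed as a glycine-rich group with numbers next to those left out. Of these 3, 1 was called higher (nlp-25), against 2.06% of all tested genes. Their log2 fold changes ranged from -0.28 to 0.75. The 8 genes left out, nlp-27 to nlp-34, all had log2 fold changes below 0, with a median of -0.97. Without nlp-24 the median of the other 63 members was 0.28.

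The members were also grouped by the type of peptide they encode. Peptides related to orcokinins are encoded by nlp-8, nlp-14 and nlp-15, and 3 of these 3 had treated values above all control values (9.78% of all tested genes did), with log2 fold changes of 0.40, 0.28 and 0.31 and adjusted p-values from limma of 0.0802, 0.227 and 0.180. nlp-15 had 1043, 859 and 889 normalized counts in the treated and 764, 702 and 776 in the control libraries. The values of nlp-14, which acts in sleep, were 1118, 989 and 1034 against 930.5, 774 and 884. In the pair with the GGARAF-type peptides, nlp-21 and nlp-9, 1 of 2 was called higher, against 2.06% of all tested genes. nlp-5 and nlp-6, which resemble allatostatins and buccalins, also had groups that did not overlap. They had 119, 105 and 104.3 against 76.2, 71.4 and 76.2 normalized counts for nlp-5 (log2 fold change 0.54, adjusted p = 0.160 from limma) and 417, 360.3 and 396 against 316, 334 and 333 for nlp-6 (log2 fold change 0.25, adjusted p = 0.364 from limma).

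Among the genes of the MSFamide-type, RPamide and FAFA peptides 0 were called, against 3.52% of all tested genes. At that share, 0 calls among so few genes says little about these groups. Differences between members of a group were not tested. Of the MSFamide-type genes, nlp-13 had 729.8, 718 and 774 normalized counts in the treated and 634, 595 and 638 in the control libraries, and these did not overlap (log2 fold change 0.25, adjusted p = 0.285 from limma). nlp-1, which encodes the AWC peptide sensed by NPR-11 on AIA neurons, had 351, 251 and 335 against 207, 242 and 274 (log2 fold change 0.37) and nlp-7 had 229, 225 and 198 against 191, 193 and 217 (log2 fold change 0.12). Both overlapped between the groups. nlp-13 and nlp-9 are direct neighbours on chromosome V. Of the RPamide genes, nlp-2 had 80.1, 69.4 and 59.98 against 49.01, 42.6 and 38.1 normalized counts (log2 fold change 0.68, adjusted p = 0.167 from limma) without overlap, while its neighbour nlp-23 had 5.899, 9.51 and 9.13 against 7.002, 22.4 and 4.48 and a log2 fold change of -0.16 with a standard error of 0.612. The value for nlp-23 was above 0 without control library 5 or without treated library 1. The bodies of nlp-2 and nlp-23 overlap T01B6.1 on the opposite strand, so their counts are uncertain too. The FAFA genes nlp-18 and nlp-20 had log2 fold changes of 0.23 and -0.07 (adjusted p = 0.397 and 0.859 from limma), and the groups of both overlapped. nlp-20 had 307, 269 and 319 normalized counts in the treated and 303, 303 and 334 in the control libraries.

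A list of 10 peptide genes with known receptors or with relatives in other animals could be read for 6 under that symbol. Of these 0 were called, against 3.52% of all tested genes. nlp-40, from the intestine, had 2447, 2358 and 2274 normalized counts in the treated and 1697, 2494 and 1995 in the control libraries (log2 fold change 0.21, adjusted p = 0.468 from limma). The control values spread around the treated ones. nlp-49 had 2544, 2361 and 2154 against 2184, 1888 and 2216 (log2 fold change 0.17, adjusted p = 0.522 from limma). nlp-12, which encodes cholecystokinin-like peptides that act through CKR-2, had 303, 314 and 369 against 296, 304 and 307 (log2 fold change 0.11). nlp-47, which encodes a peptide related to gonadotropin-releasing hormone that is sensed by GNRR-1, had 474, 464 and 456 against 471, 399.8 and 585 (log2 fold change -0.05). nlp-58 had 95.2, 71.3 and 88.7 against 67.7, 77.8 and 71.7 (log2 fold change 0.22). The sixth gene of this list is nlp-50, described above. The 4 others are named pdf-2, mip-1, capa-1 and trh-1 in the table of symbols used here and so fell outside the rule. Their log2 fold changes were -0.06, 0.07, -0.02 and 0.50. In limma 0 of the 4 passed the adjusted threshold, against 3.52% of all tested genes. For trh-1, whose peptides are related to thyrotropin-releasing hormone, the values were 155, 172 and 141 in the treated and 126, 98.1 and 108 in the control libraries (adjusted p = 0.165 from limma).

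Among the most abundant members, nlp-36 and nlp-99 had log2 fold changes near 0. nlp-36 had 1078, 920.1 and 1024 normalized counts in the treated and 727, 1385 and 1083 in the control libraries, and the controls spread on both sides of the treated values (log2 fold change -0.03, adjusted p = 0.955 from limma). nlp-99 had 825, 831 and 837 against 844, 679 and 877 (log2 fold change 0.06, adjusted p = 0.859 from limma). Its body overlaps nep-2 on the same strand, so that reads of the shared part may be missing from both. nlp-18 had 926, 776 and 904 in the treated and 754, 639.7 and 826 in the control libraries.

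In all, 40 members had an unadjusted p of 0.05 or more. Of these, 32 had a log2 fold change above 0 and 8 below 0, with a median of 0.16. The highest was nlp-60 with 1.12 (standard error 0.617), at 9.27, 14.3 and 13.04 normalized counts in the treated and 11.7, 4.26 and 2.24 in the control libraries, where few reads were counted. The groups of nlp-6, nlp-70, nlp-11, nlp-89, nlp-52 and nlp-56 did not overlap, all with higher treated values. Over all tested genes, at any p, this held for 9.78%. The 8 below 0 were nlp-62, nlp-67, nlp-20, nlp-47, nlp-23, nlp-36, nlp-66 and nlp-63, of which nlp-62 was lowest with -0.33 (standard error 0.199). It had 100.3, 105 and 96.5 in the treated and 96.5, 142 and 149 in the control libraries. Its body overlaps the noncoding gene F33D11.14 on the opposite strand, so its counts are uncertain too.

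The shift was also described by exon length, chromosome and overlap with other genes. These values are medians of the same 64 log2 fold changes taken in parts. They are not separate evidence of the shift, and the part of these features in it was not tested. The members were short, with a median exon length of 542.5 bases against 1387 for tested protein-coding genes. Among the 4078 tested protein-coding genes under 1000 exon bases the median log2 fold change was -0.01, and among the 59 members under that length it was 0.31. Chromosome X held 22 of the 70 members, of which 18 were tested. Their median was 0.27 against 0.02 for all tested genes on X, and on the 5 other chromosomes the median of the members lay between 0.21 and 0.40. The bodies of 20 tested members overlap another annotated gene. The median was 0.18 in these 20 and 0.30 in the 44 without an overlap, with 2 and 4 called, against 3.52% of all tested genes. Across the 64 members Spearman's rho between the log2 fold change and the level per kb was -0.113, and it was -0.037 for exon length, over genes that share the same libraries.

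Genes of neuropeptide processing and release were measured beside them. The list also takes in nep-1 and nep-2, which encode peptidases of the type that breaks peptides down. Of 18 listed genes of peptide processing and release, 17 were named and tested. At an adjusted p under 0.05, 1 was higher, against 2.06% of all tested genes, and 0 were lower, against 1.46%. The median log2 fold change was 0.16. It was above 0 in 16 of the 17 genes, against 50.3% of all tested genes, so an upward direction was not particular to the nlp genes. The gene below 0 was nep-1 with -0.21, and nep-2 had 0.12. The called gene was kpc-1, a proprotein convertase of the furin type, with 1559, 1549 and 1402 normalized counts in the treated and 1192, 1109 and 1038 in the control libraries (log2 fold change 0.43 ± 0.107 (SE), adjusted p = 0.0305 from limma). Its groups did not overlap. It was not called when any one of the treated libraries or control library 6 was left out, with adjusted p-values up to 0.201 in limma. At an unadjusted p under 0.05, 6 had higher values, against 8.05% of all tested genes, namely kpc-1, aex-5, ida-1, pghm-1, sbt-1 and egl-3. ida-1, which encodes a dense-core vesicle membrane protein, had 7027, 6955 and 6600.1 normalized counts in the treated and 6413, 4152 and 5177 in the control libraries (log2 fold change 0.41, adjusted p = 0.127 from limma). egl-3, the main convertase of neuropeptide precursors, had 7979, 8223 and 7827 against 8157, 5096 and 6492 (log2 fold change 0.31, adjusted p = 0.305 from limma). For egl-3 control library 4 was within the range of the treated libraries.

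The same split among the controls was seen over the whole list. The 17 genes had summed levels of 39271 to 41247 in the treated libraries and of 40154, 29170.3 and 34254 normalized counts in control libraries 4, 5 and 6, so that the groups overlapped. The median difference from the control mean was 0.17 in control library 4 and -0.21 in control library 5. The nlp genes did not follow this list in control library 4, where their median was 0.03.

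Of 13 receptors known to respond to nlp or related peptides, 13 were tested and 0 were called, against 3.52% of all tested genes. At an unadjusted p under 0.05 in limma 0 passed in either direction, against 15.2% of all tested genes. Their median log2 fold change was 0.06, and 9 of the 13 were above 0. They summed to between 1437 and 1837 normalized counts per library. ckr-1, a cholecystokinin-type receptor, had 51.4, 51.3 and 63.9 in the treated and 49.8, 40.5 and 33.6 in the control libraries (log2 fold change 0.43, adjusted p = 0.480 from limma). nmur-2, a receptor of the neuromedin U type, had 8.43, 5.703 and 7.82 against 12.4, 8.53 and 11.2 (log2 fold change -0.50, adjusted p = 0.722 from limma).

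Genes used by all neurons were set beside the family. Of 13 pan-neuronal genes, 13 were tested, 0 were called and 1, unc-104, had an unadjusted p under 0.05. Of all tested genes 3.52% and 15.2% passed these thresholds. The median log2 fold change was -0.004, in a range from -0.13 to 0.25, and 6 of the 13 were above 0. They summed to between 14997 and 15827 normalized counts in the treated and between 14636 and 15797 in the control libraries, which overlap. For the nlp genes the sums were 27644, 24683 and 25203 in the treated and 21766, 22607 and 23888 in the control libraries, which do not overlap. Among markers of other tissues, the median log2 fold change was 0.17 for 7 intestinal genes (1 called higher, ges-1), -0.13 for 7 epidermal genes (0 called) and 0.23 for 7 muscle genes (0 called). Of all tested genes 3.52% were called. The log2 fold change was above 0 in 5 of the intestinal, 2 of the epidermal and 6 of the muscle genes. At an unadjusted p under 0.05, 8.05% of all tested genes had higher and 7.13% lower values. By that threshold 1 intestinal gene (ges-1) and 2 muscle genes (myo-3 and myo-1) had higher values, and 3 epidermal genes (lin-26, rol-6 and dpy-7) and 1 muscle gene (hlh-1) had lower values. The summed levels overlapped between the groups in each list, with 27961 to 32305 treated and 26962 to 35152 control normalized counts for intestine, 36742 to 40968 and 39008 to 42996 for epidermis, and 122219 to 149476 and 93689 to 150045 for muscle, and their part in the shift of the nlp genes was not tested.

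**Figure D5:**
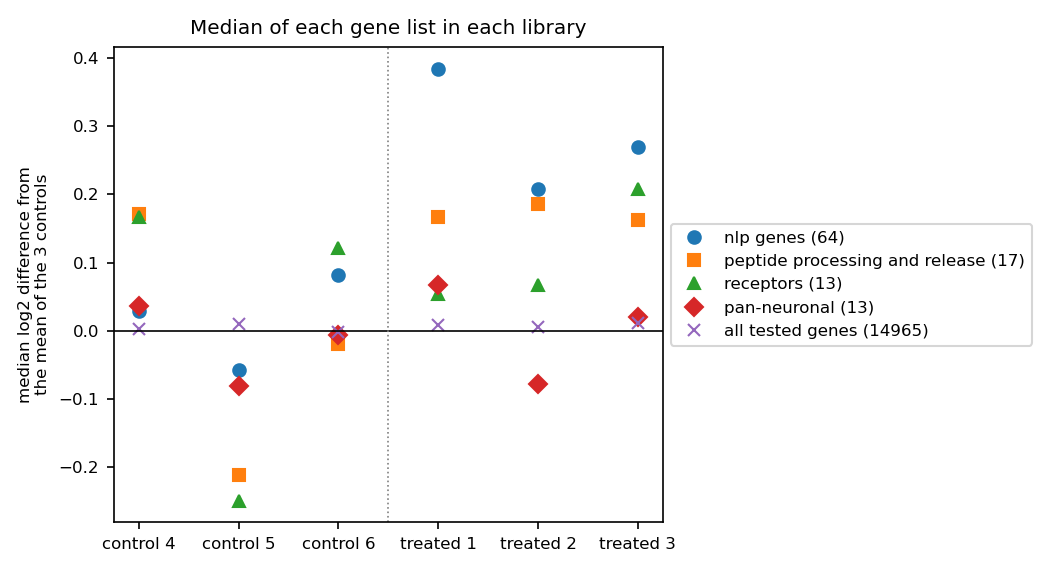
Median log2 difference from the mean of the 3 controls, for each gene list in each library. The nlp genes lie at 0.38, 0.21 and 0.27 in the treated libraries and at most at 0.08 in a control, the pan-neuronal genes between -0.08 and 0.07 in all 6, and the processing genes at 0.17 in control library 4.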

How the data were processed

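RNA-seq of polyadenylated RNA was done on 6 N2 libraries, 3 per group. Per the study's methods the authors used ShortRead for quality control, tophat2 for alignment and HTSeq-count for counting. The deposited signal is reads per gene multiplied by one factor per library. The methods name edgeR and DESeq and do not say which gave the factor, but the deposited values are labelled DESeq. The methods name Ensembl WBcel215 and the submitters' processing notes WBcel235, so no coordinates are given. Versions and the strand setting of the counting are not given in the sources used here. Column names give the group only, not which labelled replicate a library is. The last 5 lines, reads outside genes, held 33.1% to 41.8% of the column totals and were left out.

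Symbols came from a gene name table and from RefSeq (WBcel235). Of the 70 members, 63 carried an nlp symbol in both and 7 in RefSeq only. nlp-10 was one of these, since the other table spells it npl-10. Exon lengths, gene types, neighbours and overlaps of gene bodies came from the WBcel235 annotation. Dividing by the value of 1 read recovered the reads (100% of values whole within 0.01 reads).

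A linear model per gene with a variance trend (limma 3.58.1 under R 4.3.3, two-sided) was fitted to log2(normalized count + 1), which understates fold changes of low genes, for the 14965 genes whose mean over the 6 libraries reached 5, with Benjamini-Hochberg adjustment over these genes. Values per library are given for members at an adjusted p under 0.05 or an unadjusted p under 0.01, for the 8 members with the highest level per kb and for the groups by peptide type. nlp-88, nlp-60, nlp-62 and the genes given as examples from the lists were named after their values were seen. The members, lists and tests were chosen with earlier results of these data known, among them the upward median of neuropeptide genes. Counts and medians of lists are descriptions.

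Alternatives were pseudocounts of 0.5 and 5, no filter, a minimum mean of 50, quantile, upper-quartile and TMM scaling, limma with no trend and with robust variances, count models of the recovered reads (DESeq2 1.42.0, edgeR 4.0.16), and leaving out each library. The scripts were tested on simulated counts. Python 3.11.15 with matplotlib 3.10.9, scipy 1.17.1, numpy 2.4.6 and pandas 2.3.3 did the rest.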

Additional observations from a re-analysis of the deposited data

How the results depend on the processing

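With all libraries kept, the number of nlp genes called was between 5 and 7 under the 3 scalings, both pseudocounts, both filters, the robust option of eBayes, edgeR and DESeq2. It was 0 in eBayes without the trend, where 1 gene was called among all genes. Under the other settings, between 2.28% (no filter) and 4.79% (DESeq2) of all genes were called. The nlp genes fitted were 69 without a filter and 54 at a minimum mean of 50. With one replicate left out at a time, the nlp genes called ranged from 0 to 11 and all genes called from 217 to 1436 (1.45% to 9.6%). The median log2 fold change of the nlp genes lay between 0.25 and 0.29 with all libraries kept and between 0.23 and 0.32 with one left out. The median over all tested genes stayed between -0.01 and 0.03. The cause was not tested.

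Signs changed with one library left out for nlp genes near 0. The log2 fold change ranged from -0.050 to 0.13 for nlp-99, -0.29 to 0.18 for nlp-36, -0.60 to 0.45 for nlp-23, -0.12 to 0.0014 for nlp-20 and -0.18 to 0.10 for nlp-47. Over the 31 genes followed singly, 10 values lost and 1 gained an adjusted p under 0.05 with all libraries kept, and 24 lost and 4 gained it with one left out. DESeq2 gave an adjusted p for 62 of the 64 nlp genes.

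No paired analysis was possible because column names give no replicate number that matches a label. Each group had 3 cultures from one population. At 3 against 3, changes of several standard errors could miss the threshold, as for nlp-50 with a log2 fold change of 0.54 ± 0.157 (SE) and an adjusted p of 0.0756 in limma. Few reads were counted for nlp-60 and nlp-23.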
